A study of Arabidopsis thaliana with 12 samples.

Results

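The genes described here are 34 nuclear genes of Arabidopsis thaliana that encode subunits of photosystem I and photosystem II, the mobile electron carriers, the Rieske subunit of cytochrome b6f, 2 subunits of the chloroplast ATP synthase and 2 proteins of cyclic electron flow. They were chosen by identifier, as nuclear PSA, PSB and PET genes with the genes of ferredoxin, ferredoxin-NADP reductase (FNR), ATPC1, ATPD, PGR5 and PGRL1A. The rule uses no measured value, but the choice was made with earlier results of these data known. Some such genes, among them PETM (AT2G26500), PSB28 and PSB33, are not members and were followed in other lists. All 34 were found in the deposited tables, which list 25835 genes in all. All 34 were also among the 19170 genes tested, those with a mean of at least 1 FPKM (FPKM is the authors' count scaled to gene length and library size) over the 12 libraries. By complex they fall into 12 genes of photosystem I, 11 of photosystem II, 7 electron carriers, 2 of the ATP synthase and 2 of cyclic electron flow.

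The study compared an eif4e mutant, named for a translation initiation factor that binds the mRNA cap, with wild type. Both were of the Columbia ecotype. Whole seedlings were 9 days old, had been grown at 22 °C under 16 h of light a day (8 h dark), and were frozen at zeitgeber time 16 h, the end of the light period. From each genotype total mRNA and mRNA from immunopurified ribosomes were sequenced in 3 replicates, which gave the groups total eif4e, total wild type, ribosome-bound eif4e and ribosome-bound wild type. The labels name neither the mutant allele nor the ribosomal tag, and do not say which lines carried the tag. They do not say either whether replicates were separate cultures, so the p-values cover only how these samples spread, which may be technical. In whole seedlings fewer cells of a type and less RNA per cell cannot be told apart.

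In the thylakoid membrane photosystem II oxidises water and passes electrons through the cytochrome b6f complex and the copper protein plastocyanin to photosystem I, which reduces ferredoxin. FNR then uses ferredoxin to make NADPH, and the proton gradient built on the way drives the ATP synthase. The reaction centre proteins are encoded in the plastid genome, and the nucleus supplies most of the peripheral subunits, which are translated in the cytosol and imported. As 0 of the listed identifiers belong to an organelle genome, the plastid-encoded partners were not analysed here.

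Libraries held 17058704 to 24673644 counts in the listed genes. EIF4E1 (AT4G18040), the gene that the mutant is named for, had 8.28, 24.2 and 8.29 FPKM in the 3 total eif4e libraries, against 45.8, 44.0 and 44.2 FPKM in total wild type. Its ribosome-bound level was 12.3, 11.6 and 13.9 FPKM in eif4e, against 71.8, 92.9 and 87.2 FPKM in wild type. The library total eif4e 2 thus had a higher EIF4E1 level than the other eif4e libraries, though below every wild-type one. With that library left out, 20 members were called higher in total mRNA and 13 in ribosome-bound mRNA, the same counts as with it. Libraries of replicate number 2 stood apart for the members. Replicate 2 had the lowest level of its group for 33 of the 34 members in total eif4e, 34 in total wild type, 32 in ribosome-bound eif4e and 29 in ribosome-bound wild type. Libraries with the same replicate number deviated together across genes, so a fit with the replicate number as a block was also made, and members that it adds to the calls are named. The labels do not say what a replicate number shares.

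The members were among the most abundant messages of the seedling. In the 3 replicates they held 2.70 to 3.20% of the counts in total eif4e, against 2.15 to 2.51% in total wild type, and 3.90 to 5.01% in ribosome-bound eif4e, against 3.40 to 4.05% in ribosome-bound wild type. By mean FPKM, 19 members were among the 100 highest tested genes in total eif4e and 18 in total wild type, and 24 and 19 in the ribosome-bound mRNA of eif4e and of wild type. Levels within the group spanned 27.3-fold in total eif4e and 27.1-fold in total wild type. The highest member in each of the 4 groups was PSBR (AT1G79040), a small lumenal subunit of photosystem II, with a mean of 3174 FPKM in total eif4e and 2595 FPKM in total wild type. The lowest was PETE1 (AT1G76100), the minor plastocyanin gene, with 116 FPKM in total eif4e and 95.9 FPKM in total wild type. PETE2, PSBO1, PSBX, FD2 and PSBP-1 followed PSBR in total mRNA of both genotypes, in an order that differed between them.

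**Figure D1:**
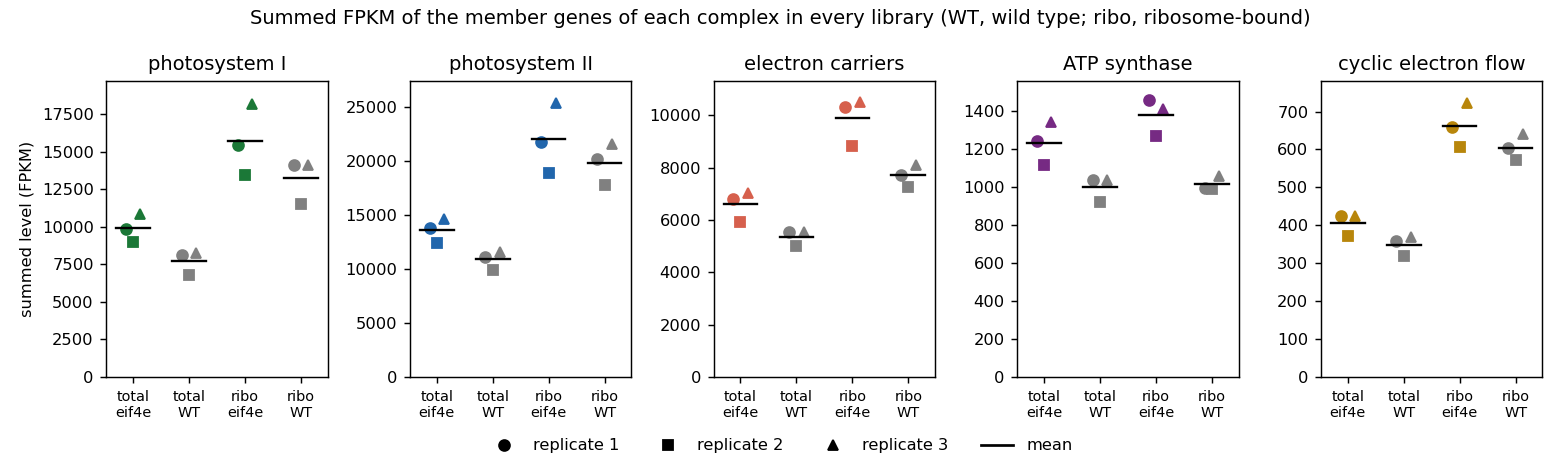
Summed FPKM of the member genes of each complex (y axis, from 0) in each of the 12 libraries (points; marker shape gives the replicate number) with the mean of each group as a line. The sum of every complex was higher in eif4e than in wild type by its group mean, in total and in ribosome-bound mRNA.

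Summed over its 12 genes, photosystem I had 9889.8, 8986 and 10861 FPKM in total eif4e, against 8099, 6795 and 8259 FPKM in total wild type. In ribosome-bound mRNA it had 15430.0, 13454 and 18214 FPKM in eif4e, against 14099.7, 11556 and 14114 FPKM in wild type. The 2 genotypes did not overlap in total mRNA but did on ribosomes. The sum of the 7 carriers averaged 6598 ± 595 FPKM in total eif4e and 5351 ± 309.8 FPKM in total wild type (SD, n = 3 each). Ribosome-bound, it averaged 9884 ± 927 FPKM in eif4e and 7706 ± 422 FPKM in wild type. The carriers and the ATP synthase kept the genotypes apart in both kinds of mRNA, as the plot of summed levels shows.

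In total mRNA 20 of the 34 members rose in eif4e and 0 fell, by edgeR's quasi-likelihood test with Benjamini-Hochberg adjustment over all tested genes (adjusted p below 0.05). Over all tested genes 10.4% were called higher and 6.54% lower. The log2 change (eif4e over wild type) of every member was above 0, from 0.15 ± 0.12 (SE) for FNR2 to 0.68 ± 0.15 for PSAE-1, with a median of 0.44 beside -0.0035 over all tested genes. With quantile normalisation 30 of 34 were above 0, the median was 0.22, and PSBO2, PETC, FNR1 and FNR2 were below 0. By complex, 8 of 12 photosystem I genes, 6 of 11 photosystem II genes, 3 of 7 carriers, both ATP synthase genes and 1 of the 2 cyclic flow genes rose. With the replicate block 32 members rose, all but FNR1 and FNR2, where 16.8% of all tested genes were called higher. The calls of 8 members held with any 1 library left out, those of PSAE-1, PSAG, PSBX, PSB27, PETE2, FD1, ATPC1 and PGR5. The count was 10 without total eif4e 1, 9 without total eif4e 3, 11 without total wild type 1 and 8 without total wild type 2. These changes are relative to TMM scaling: with library size alone the median of all tested genes was -0.11, that of the members 0.33, and 12 members rose. The split of all calls also depended on it, with 2001 higher and 1253 lower under TMM and 1023 higher and 3001 lower with library size alone. Overlap between genotypes is described below in FPKM, while the test used counts scaled by TMM. In total mRNA 25 of the 34 members had every eif4e library above every wild-type one in FPKM, and 31 after TMM. On ribosomes the counts were 13 and 14. The same was not counted over all tested genes.

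On ribosomes 13 of 34 members rose in eif4e and 0 fell, beside 15.4% of all tested genes called higher and 12% called lower. Of the 34, 33 had a log2 change above 0, and PSAE-2 was at -0.06 ± 0.12. With quantile normalisation 30 were above 0, with a median of 0.19, and PSBR was lowest at -0.25. The median with TMM was 0.30 beside 0.01 over all tested genes, and the largest was 0.60 ± 0.12 for PETE2. Of photosystem I 2 genes rose, of photosystem II 4, of the carriers 5, of the ATP synthase both, and of cyclic flow 0. With the replicate block 29 members rose, beside 20.9% of all tested genes. Only PETE2, ATPC1 and ATPD held their calls with any 1 library left out. The count was 3 without ribosome-bound eif4e 1, 4 without ribosome-bound eif4e 3, 3 and 6 without ribosome-bound wild type 2 and 1, 8 without total wild type 1, and 22 without ribosome-bound eif4e 2.

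**Figure D2:**
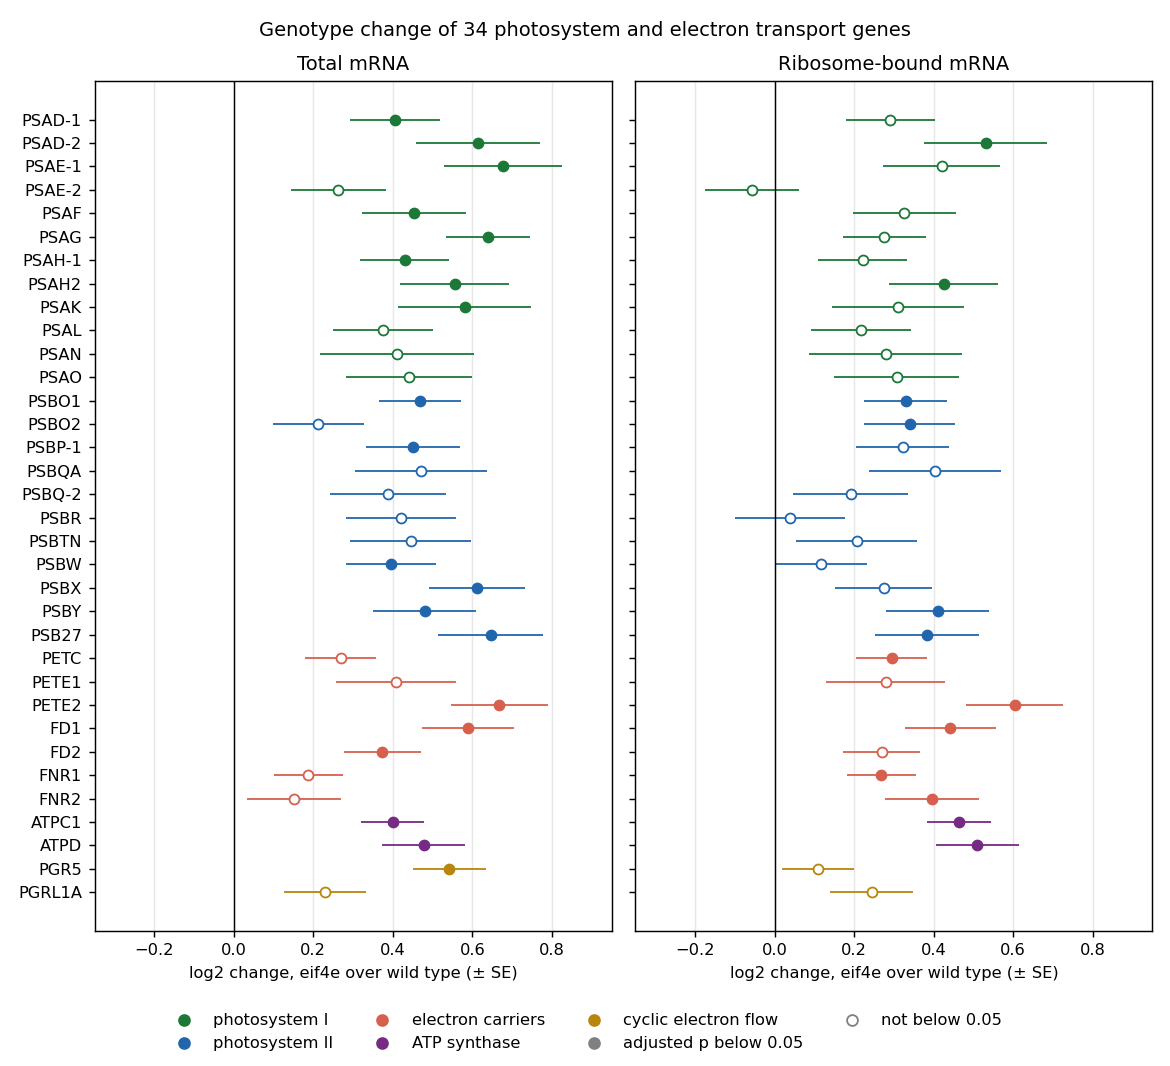
Log2 change of eif4e over wild type (x axis, ± SE) of each of the 34 members in total mRNA (left) and ribosome-bound mRNA (right), coloured by complex; filled points had an adjusted p below 0.05. All 34 points lie above 0 in total mRNA and 33 on ribosomes (30 in each with quantile normalisation, not plotted), with 20 and 13 filled.

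Photosystem I genes had a median log2 change of 0.45 in total mRNA and 0.30 on ribosomes. PSAD and PSAE form the stromal face on which ferredoxin is reduced, and each is encoded by a pair of genes. PSAE-1 (AT4G28750) had 858, 809 and 995 FPKM in eif4e, against 628, 539 and 655 FPKM in wild type, without overlap, and rose (log2 change 0.68 ± 0.15, adjusted p = 0.0114). Ribosome-bound, it had 1400.2, 1323 and 1787 FPKM in eif4e, against 1325, 974 and 1194 FPKM in wild type, and the lowest eif4e library fell just below the highest wild-type one. The change there, 0.42 ± 0.15, adjusted p = 0.054, passed with the replicate block (adjusted p = 0.00309). Its paralog PSAE-2 (AT2G20260) had the smallest change of the complex in both kinds of mRNA. In total mRNA it had 289.7, 314 and 340.3 FPKM in eif4e, against 302, 253 and 305 FPKM in wild type, where the groups overlapped (0.26 ± 0.12, adjusted p = 0.15, adjusted p = 0.0298 with the replicate block). On ribosomes the levels were 469, 479.9 and 584 FPKM in eif4e, against 595, 477 and 579 FPKM in wild type, also with overlap (-0.06 ± 0.12, adjusted p = 0.746).

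Both genes of the PSAD pair were higher in eif4e by their fitted values, PSAD-2 by more than PSAD-1. PSAD-2 (AT1G03130), the lower-expressed PSAD gene, had 192, 168 and 217 FPKM in eif4e, against 147, 112 and 154 FPKM in wild type in total mRNA. Ribosome-bound, its levels were 282, 248 and 321 FPKM in eif4e, against 223, 166 and 222 FPKM in wild type. Every eif4e library was above every wild-type one in both, and PSAD-2 rose in total (0.61 ± 0.16, adjusted p = 0.0226) and in ribosome-bound mRNA (0.53 ± 0.16, adjusted p = 0.028). The total call was lost with total eif4e 1 or 3 or total wild type 1 or 2 left out (adjusted p up to 0.0841). The ribosome-bound one was lost with ribosome-bound eif4e 1 or 3 or ribosome-bound wild type 2 left out (adjusted p up to 0.10). PSAD-1 (AT4G02770) had 918, 801 and 996 FPKM in eif4e, against 789, 659.8 and 794 FPKM in wild type in total mRNA, and rose (0.41 ± 0.11, adjusted p = 0.0317), a call lost with total eif4e 1 or 3 or total wild type 1, 2 or 3 left out (adjusted p up to 0.116) and with the length correction (adjusted p = 0.0593). Ribosome-bound PSAD-1 was at 1252, 1089 and 1313 FPKM in eif4e, against 1085, 942 and 1063 FPKM in wild type (0.29 ± 0.11, adjusted p = 0.0753, adjusted p = 0.00193 with the replicate block).

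Of the remaining photosystem I genes, PSAG (AT1G55670), whose product binds the peripheral antenna, rose in total mRNA (0.64 ± 0.11, adjusted p = 0.00288) with 1359.6, 1271 and 1515 FPKM in eif4e, against 1031, 833 and 1049 FPKM in wild type. Ribosome-bound, it had 1405, 1369.6 and 1522 FPKM in eif4e, against 1333, 1112 and 1223 FPKM in wild type, closer together than in total mRNA (0.28 ± 0.11, adjusted p = 0.0715, adjusted p = 0.00481 with the replicate block). PSAG was picked out after its values were seen. PSAK (AT1G30380), also on the antenna side, rose in total mRNA (0.58, adjusted p = 0.0358), and so did PSAF (AT1G31330), which helps dock plastocyanin (0.45, adjusted p = 0.0358, but adjusted p = 0.0543 with the length correction). PSAH, PSAL and PSAO line the side where light-harvesting complex II docks during state transitions. Of them PSAH-1 (AT3G16140) (0.43, adjusted p = 0.0251) and PSAH2 (AT1G52230) (0.56, adjusted p = 0.0197) rose in total mRNA, and PSAH2 also rose on ribosomes (0.42, adjusted p = 0.0393). PSAL (AT4G12800) (0.38, adjusted p = 0.0629), PSAO (AT1G08380) (0.44, adjusted p = 0.0768) and the lumenal subunit gene PSAN (AT5G64040) (0.41, adjusted p = 0.164) did not pass in total mRNA, and each passed with the replicate block. On ribosomes the log2 changes of PSAF, PSAH-1, PSAK, PSAL, PSAN and PSAO lay between 0.22 and 0.33, and none of these 6 passed by edgeR. All but PSAN passed there with the replicate block. Leaving out 1 library ended the total calls of PSAF, PSAH-1, PSAH2 and PSAK (adjusted p up to 0.127, 0.0917, 0.0754 and 0.111), each of them without total eif4e 1 or 3 or total wild type 2, among others. That of PSAH2 on ribosomes was lost with total eif4e 1 or total wild type 1 or ribosome-bound eif4e 1 or 3 or ribosome-bound wild type 1 or 2 left out (adjusted p up to 0.134).

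Photosystem II genes had a median log2 change of 0.45 in total mRNA and 0.32 on ribosomes. PSB27 (AT1G03600), a lumenal protein of photosystem II assembly and repair, had the largest total change of the complex. It had 285, 259 and 334 FPKM in eif4e, against 207, 188 and 218 FPKM in wild type, without overlap, and rose (0.65 ± 0.13, adjusted p = 0.00832). On ribosomes the levels were 428, 389.8 and 519 FPKM in eif4e, against 370.2, 314 and 377 FPKM in wild type, again apart (0.38 ± 0.13, adjusted p = 0.0494). That call was lost with any 1 of 9 libraries left out, all but total eif4e 2 and 3 and ribosome-bound eif4e 2 (adjusted p up to 0.161).

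The oxygen-evolving complex is capped on the lumenal side by PsbO, PsbP and PsbQ. PSBO1 (AT5G66570), the major gene of the manganese-stabilising protein PsbO, had 1982, 1854 and 2218 FPKM in eif4e, against 1601, 1496 and 1689 FPKM in wild type in total mRNA, without overlap, and rose (0.47 ± 0.10, adjusted p = 0.0123). On ribosomes it had 2056, 1871 and 2218 FPKM in eif4e, against 1717, 1515 and 1828 FPKM in wild type and rose as well (0.33 ± 0.10, adjusted p = 0.0369). The total call was lost with total eif4e 3 or total wild type 2 left out (adjusted p up to 0.0523), and the ribosome-bound one with total eif4e 1 or total wild type 1 or ribosome-bound eif4e 1 or 3 or ribosome-bound wild type 1 or 2 left out (adjusted p up to 0.129). PSBO2 (AT3G50820) was at 687, 591 and 732 FPKM in eif4e, against 639, 593 and 666 FPKM in wild type in total mRNA, where the genotypes overlapped and the change was the smallest of the complex (0.21 ± 0.11, adjusted p = 0.22, adjusted p = 0.0293 with the replicate block). It had 889, 710.0 and 867 FPKM in eif4e, against 671, 614 and 732 FPKM in wild type on ribosomes, where 1 eif4e library lay within the wild-type range, and rose there (0.34 ± 0.11, adjusted p = 0.0475). With the length correction that change missed the threshold (adjusted p = 0.054), as it did with total eif4e 1 or total wild type 1, 2 or 3 or ribosome-bound eif4e 1 or 3 or ribosome-bound wild type 1 or 2 left out (adjusted p up to 0.152). PSBP-1 (AT1G06680) rose in total mRNA (0.45, adjusted p = 0.0249), not with total eif4e 1 or 3 or total wild type 1 or 2 left out (adjusted p up to 0.0924), and missed the threshold on ribosomes (0.32, adjusted p = 0.0623). The PsbQ genes PSBQA (AT4G21280) (0.47, adjusted p = 0.0733) and PSBQ-2 (AT4G05180) (0.39, adjusted p = 0.088) did not pass in total mRNA, nor on ribosomes (0.40, adjusted p = 0.0914 and 0.19, adjusted p = 0.344). With the replicate block PSBQA (adjusted p = 0.00263) and PSBQ-2 (adjusted p = 0.00101) passed in total mRNA, and PSBP-1, PSBQA and PSBQ-2 each passed on ribosomes.

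Among the small subunits, PSBY (AT1G67740), a membrane protein, had the largest ribosome-bound change of the complex. In total mRNA it had 598, 515 and 618 FPKM in eif4e, against 491, 393 and 476 FPKM in wild type (0.48 ± 0.13, adjusted p = 0.0284), and on ribosomes 771, 619 and 771 FPKM in eif4e, against 616, 486 and 581 FPKM in wild type (0.41 ± 0.13, adjusted p = 0.0367). The groups were apart in each, and PSBY rose in both. The total call was lost with total eif4e 1 or 3 or total wild type 1, 2 or 3 left out (adjusted p up to 0.104), and the ribosome-bound one with ribosome-bound eif4e 1 or 3 or ribosome-bound wild type 2 or 3 left out (adjusted p up to 0.129). PSBR, which is needed for stable binding of PsbP, had the smallest ribosome-bound change. Its total levels were 3313, 3039 and 3169 FPKM in eif4e, against 2636, 2366 and 2782 FPKM in wild type, without overlap, and the change missed the threshold (0.42 ± 0.14, adjusted p = 0.0578, adjusted p = 0.0046 with the replicate block). Its ribosome-bound levels were 6381, 5629 and 8064 FPKM in eif4e, against 6460.2, 6212 and 7586 FPKM in wild type, which overlapped (0.04 ± 0.14, adjusted p = 0.855). PSBX (AT2G06520) rose in total mRNA (0.61, adjusted p = 0.00729), as did PSBW (AT2G30570) (0.40, adjusted p = 0.0369), a subunit that helps hold photosystem II to its antenna. PSBW did not pass with total eif4e 1 or 3 or total wild type 1, 2 or 3 left out (adjusted p up to 0.132) or with the length correction (adjusted p = 0.0584). PSBTN (AT3G21055), a small lumenal subunit, did not pass in total mRNA (0.45, adjusted p = 0.0671, adjusted p = 0.00088 with the replicate block). On ribosomes PSBX (0.27, adjusted p = 0.112), PSBW (0.12, adjusted p = 0.464) and PSBTN (0.21, adjusted p = 0.329) did not pass. With the replicate block PSBX and PSBTN did.

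Of the electron carriers, PETE2 and FD1 had the largest changes and the FNR genes the smallest ones in total mRNA. PETE2 (AT1G20340), the main plastocyanin gene, had 2289, 1986 and 2506 FPKM in eif4e, against 1616, 1412 and 1642 FPKM in wild type in total mRNA. Its ribosome-bound level was 3764, 3115 and 3991 FPKM in eif4e, against 2429, 2316 and 2660.5 FPKM in wild type. Every eif4e library stood above every wild-type one in both, and PETE2 rose by a similar amount in each (0.67 ± 0.12, adjusted p = 0.00486 in total, 0.60 ± 0.12, adjusted p = 0.00596 on ribosomes). PETE1 had 111, 102 and 135 FPKM in eif4e, against 96.8, 80.8 and 110.0 FPKM in wild type in total mRNA. In ribosome-bound mRNA it had 173, 159.8 and 209 FPKM in eif4e, against 155, 134 and 173 FPKM in wild type. The genotypes overlapped in both, and neither change passed (0.41 ± 0.15, adjusted p = 0.086, and 0.28 ± 0.15, adjusted p = 0.182), though with the replicate block both did (adjusted p = 0.000213 and adjusted p = 0.00189).

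The ferredoxin genes FD1 (AT1G10960) and FD2 (AT1G60950) encode the leaf-type carriers that photosystem I reduces. FD1 had 598, 479 and 549 FPKM in eif4e, against 426, 374 and 382 FPKM in wild type in total mRNA. Ribosome-bound, its levels were 826, 629.5 and 691 FPKM in eif4e, against 577, 540.1 and 516 FPKM in wild type. The genotypes were apart in both kinds. FD1 rose in total (0.59 ± 0.12, adjusted p = 0.00691) and ribosome-bound mRNA (0.44 ± 0.12, adjusted p = 0.0174). The ribosome-bound call was lost with ribosome-bound eif4e 1 or ribosome-bound wild type 2 left out (adjusted p up to 0.0694). FD2, the more abundant of the pair, had 1709, 1544 and 1789.7 FPKM in eif4e, against 1478, 1316 and 1462 FPKM in wild type in total mRNA, and rose (0.37 ± 0.10, adjusted p = 0.0245), but not with total eif4e 1 or 3 or total wild type 1, 2 or 3 left out (adjusted p up to 0.0895). Its ribosome-bound levels, 2607, 2340.1 and 2737 FPKM in eif4e, against 2368, 2005 and 2223 FPKM in wild type, overlapped by 1 library (0.27 ± 0.10, adjusted p = 0.0593, adjusted p = 0.00387 with the replicate block).

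Both FNR genes differed more on ribosomes than in total mRNA by their fitted values. FNR2 (AT1G20020) was at 554, 439 and 529.7 FPKM in eif4e, against 507, 475 and 518 FPKM in wild type in total mRNA, with eif4e libraries 1 and 3 above the wild-type range and eif4e 2 below it (0.15 ± 0.12, adjusted p = 0.397). On ribosomes it had 644, 526 and 613 FPKM in eif4e, against 422, 452 and 528 FPKM in wild type and rose (0.40 ± 0.12, adjusted p = 0.0300), with the lowest eif4e library just under the highest wild-type one. FNR1 (AT5G66190) had 641, 556 and 627 FPKM in eif4e, against 589, 562 and 601 FPKM in wild type in total mRNA (0.19 ± 0.09, adjusted p = 0.157) and 864, 796 and 794 FPKM in eif4e, against 636, 693 and 774 FPKM in wild type on ribosomes, where it rose (0.27 ± 0.09, adjusted p = 0.0399). The FNR2 call was lost with ribosome-bound eif4e 1 or 3 or ribosome-bound wild type 1 or 2 left out (adjusted p up to 0.107). That of FNR1 was lost with total eif4e 3 or total wild type 1, 2 or 3 or ribosome-bound eif4e 1 or 3 or ribosome-bound wild type 1 or 2 left out (adjusted p up to 0.14) and with the length correction (adjusted p = 0.085). Neither gene passed in total mRNA with the replicate block (adjusted p = 0.22 for FNR2, adjusted p = 0.0727 for FNR1). The Rieske protein gene PETC (AT4G03280) missed the threshold in total mRNA (0.27, adjusted p = 0.060, adjusted p = 0.00949 with the replicate block). It rose on ribosomes (0.29, adjusted p = 0.0314), a call lost with ribosome-bound eif4e 1 or 3 or ribosome-bound wild type 1 or 2 left out (adjusted p up to 0.105).

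The ATP synthase genes were higher in eif4e in both kinds of mRNA. ATPC1 (AT4G04640), the gamma subunit through which light switches the enzyme on, had 669.6, 604 and 689.8 FPKM in eif4e, against 562, 509.9 and 557 FPKM in wild type in total mRNA. Its ribosome-bound level was 589, 514 and 534 FPKM in eif4e, against 408, 391 and 428 FPKM in wild type. ATPD (AT4G09650), the delta subunit, had 575, 510.5 and 653 FPKM in eif4e, against 476, 410.3 and 479.5 FPKM in wild type in total mRNA. In ribosome-bound mRNA it had 868, 755 and 879 FPKM in eif4e, against 588, 601 and 629 FPKM in wild type. For both genes each eif4e library was above each wild-type one in both kinds. ATPC1 rose in total (0.40 ± 0.08, adjusted p = 0.00751) and ribosome-bound mRNA (0.46 ± 0.08, adjusted p = 0.00317), and so did ATPD (0.48 ± 0.10, adjusted p = 0.0114, and 0.51 ± 0.10, adjusted p = 0.00632). Of these 4 calls the total one of ATPD was lost, with total wild type 2 left out (adjusted p up to 0.0502).

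PGR5 and PGRL1 act together in the antimycin-sensitive route that returns electrons from ferredoxin to the plastoquinone pool. PGR5 (AT2G05620) had 171, 167 and 176 FPKM in eif4e, against 133, 116 and 137 FPKM in wild type in total mRNA, well apart, and rose (0.54 ± 0.09, adjusted p = 0.00315). Ribosome-bound, its levels were 289.9, 282 and 331 FPKM in eif4e, against 291, 265 and 310.5 FPKM in wild type, where the groups overlapped (0.11 ± 0.09, adjusted p = 0.386). With the length correction the ribosome-bound change was 0.26 (adjusted p = 0.0307). PGRL1A (AT4G22890) had 252, 205 and 249.9 FPKM in eif4e, against 227, 202 and 231 FPKM in wild type in total mRNA. On ribosomes it had 368, 325 and 392 FPKM in eif4e, against 312, 307 and 329 FPKM in wild type, with overlap in both kinds. Its changes did not pass (0.23 ± 0.10, adjusted p = 0.146, and 0.24 ± 0.10, adjusted p = 0.0995). With the replicate block they passed (adjusted p = 0.0216 and adjusted p = 0.0135).

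**Figure D3:**
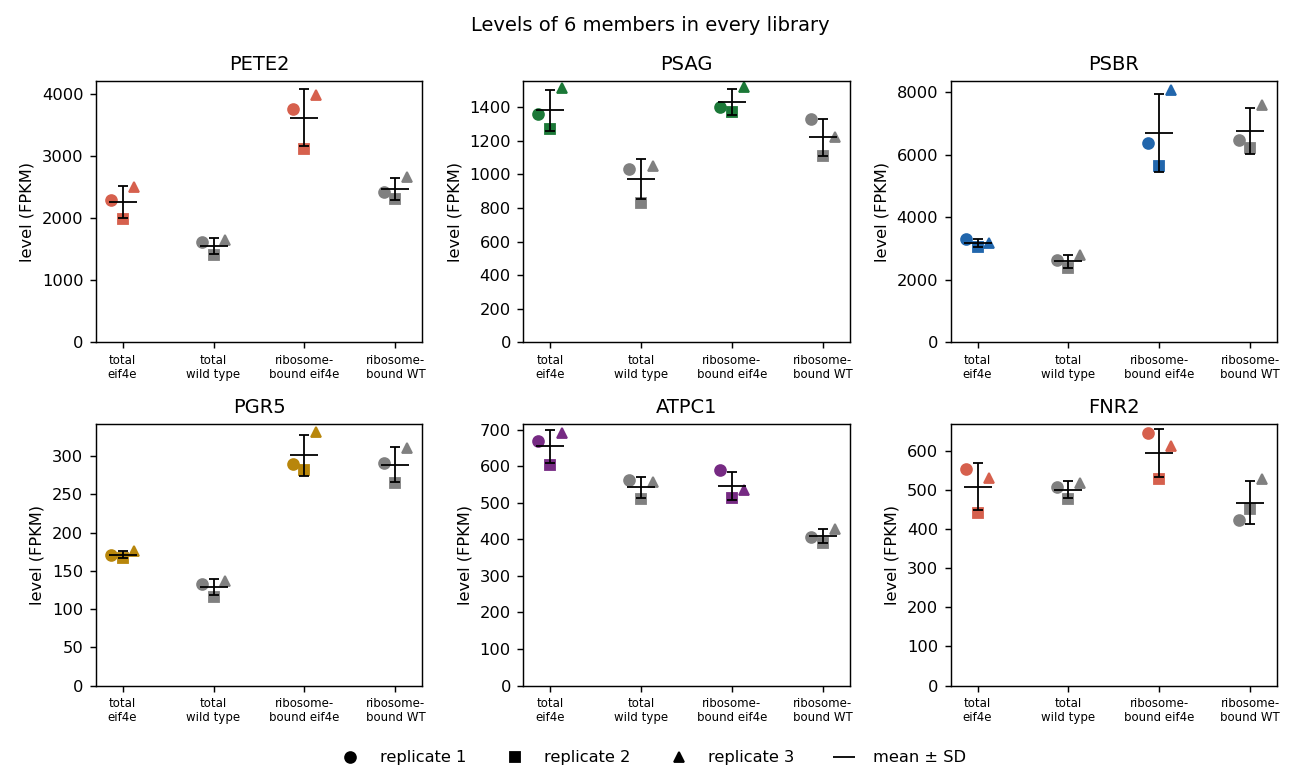
FPKM (y axis, from 0) of 6 members in every library, with replicates as points and the mean ± SD of each group (n = 3). PETE2 and ATPC1 are apart between genotypes in both kinds of mRNA, PSBR and PGR5 in total mRNA but not on ribosomes, and FNR2 overlaps in both.

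For 8 proteins a pair of genes was among the members, and the share of each gene in the pair's FPKM was compared as a description. Reads of near-identical copies may be split between them by the counting, whose program the sources used here do not name. PSAE-1 held 73.8 ± 1.5% of the PSAE level in total eif4e and 67.9 ± 0.386% in total wild type (SD, n = 3 each). Ribosome-bound, its share was 74.6 ± 1.04% in eif4e and 67.8 ± 1.04% in wild type, and the genotypes did not overlap in either. PSBO1 held 75.1 ± 0.794% of the PSBO level in total eif4e, against 71.6 ± 0.126% in total wild type, but 71.4 ± 1.4% in ribosome-bound eif4e, against 71.5 ± 0.367% in ribosome-bound wild type. Here the genotypes were apart in total mRNA alone. PSAD-1 held 82.5 ± 0.304% of its pair in total eif4e and 84.5 ± 0.85% in total wild type, and PETE2 95.1 ± 0.248% and 94.2 ± 0.446% of plastocyanin. FD2 held 75.6 ± 1.36% of the ferredoxin pair in total eif4e and 78.3 ± 0.902% in total wild type. The FNR pair was nearly even, with FNR1 at 54.6 ± 1.15% in total eif4e and 53.9 ± 0.272% in total wild type. PSAH-1 held 44.0 ± 0.574% of its pair in ribosome-bound eif4e and 47.5 ± 1.11% in ribosome-bound wild type, and PSBQA 54.8 ± 2.32% and 51.4 ± 1.51% of the PSBQ pair. The genotypes were apart for PSAD-1 and PETE2 in both kinds of mRNA, for FD2 in total mRNA and for PSAH-1 on ribosomes, and overlapped for FNR1 and PSBQA in both.

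Ribosome association was taken as the log2 ratio of ribosome-bound over total mRNA, relative to the average gene. Before any correction for gene length, most members were enriched on ribosomes in both genotypes. In eif4e 29 were called higher on ribosomes and 1 lower, with a median of 0.65, beside 29.1% of all tested genes higher and 29.3% lower. In wild type 30 were higher and 1 lower, with a median of 0.77, beside 33.8% and 33.6%. PSAN (AT5G64040) had the highest association, 1.46 ± 0.20 in eif4e and 1.59 ± 0.20 in wild type. In eif4e it averaged 1921 FPKM on ribosomes and 719.8 FPKM in total mRNA. PSBR (1.12 ± 0.14 in eif4e, 1.5 ± 0.14 in wild type), PSBW (1.01 ± 0.12 and 1.29 ± 0.12) and PGR5 (0.85 ± 0.09 and 1.28 ± 0.09) were also high in both genotypes. ATPC1 was the 1 member called lower on ribosomes (-0.23 ± 0.08, adjusted p = 0.0294 in eif4e, -0.29 ± 0.08, adjusted p = 0.0069 in wild type). Its call in eif4e was lost with total eif4e 1 or 3 or ribosome-bound eif4e 2 or 3 left out (adjusted p up to 0.107). In eif4e the members that passed neither way were PSAF (0.32, adjusted p = 0.0537), PSAG (0.09, adjusted p = 0.491), PSBO1 (0.06, adjusted p = 0.646) and FNR2 (0.26, adjusted p = 0.0745). In wild type they were PSBO1 (0.20, adjusted p = 0.109), PSBO2 (0.21, adjusted p = 0.132) and FNR2 (0.02, adjusted p = 0.892). With the replicate block 31 members were called higher on ribosomes in eif4e, beside 33% of all tested genes, and 32 in wild type, beside 37.5%. Those added were PSAF (adjusted p = 0.00173) and FNR2 (adjusted p = 0.0172) in eif4e, and PSBO1 (adjusted p = 0.00677) and PSBO2 (adjusted p = 0.0124) in wild type.

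Association followed gene length across all genes, and the members are short. Gene lengths behind the FPKM values ran from 552 bases for PSBTN to 1521 bases for ATPC1, with a median of 849.5 beside 1517 over all tested genes. Among all tested genes of 500 to 1000 bases the median association was 0.60 in eif4e and 0.86 in wild type, and among those of 1500 to 2000 bases -0.10 and -0.13. The 24 members of the shorter class had medians of 0.71 in eif4e and 0.91 in wild type. Over the 34 members the correlation of association with log2 length was -0.53 in eif4e and -0.69 in wild type, and over all tested genes -0.47 and -0.62. The genes of a library share its fragment length and depth, so these are given as descriptions. With a correction for each library's trend with length, 8 members were called higher on ribosomes and 2 lower in eif4e, with a median of 0.08. Of the 19170 tested genes 3224 (16.8%) were then called higher and 4296 lower. In wild type 7 members were higher and 3 lower, with a median of 0.01, beside 3813 (19.9%) of all tested genes higher and 4391 lower. With it 24 members were above 0 and 10 below in eif4e, and 17 above and 17 below in wild type. PSAN stayed highest with that correction (0.88, adjusted p = 0.00268 in eif4e, and 0.81, adjusted p = 0.00374 in wild type), and PSBQ-2, PSBR, PSBW, FNR1, PGR5 and PGRL1A also remained higher in both genotypes. PSAG turned to -0.55 in eif4e (adjusted p = 0.000829) and -0.43 in wild type (adjusted p = 0.0032).

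**Figure D4:**
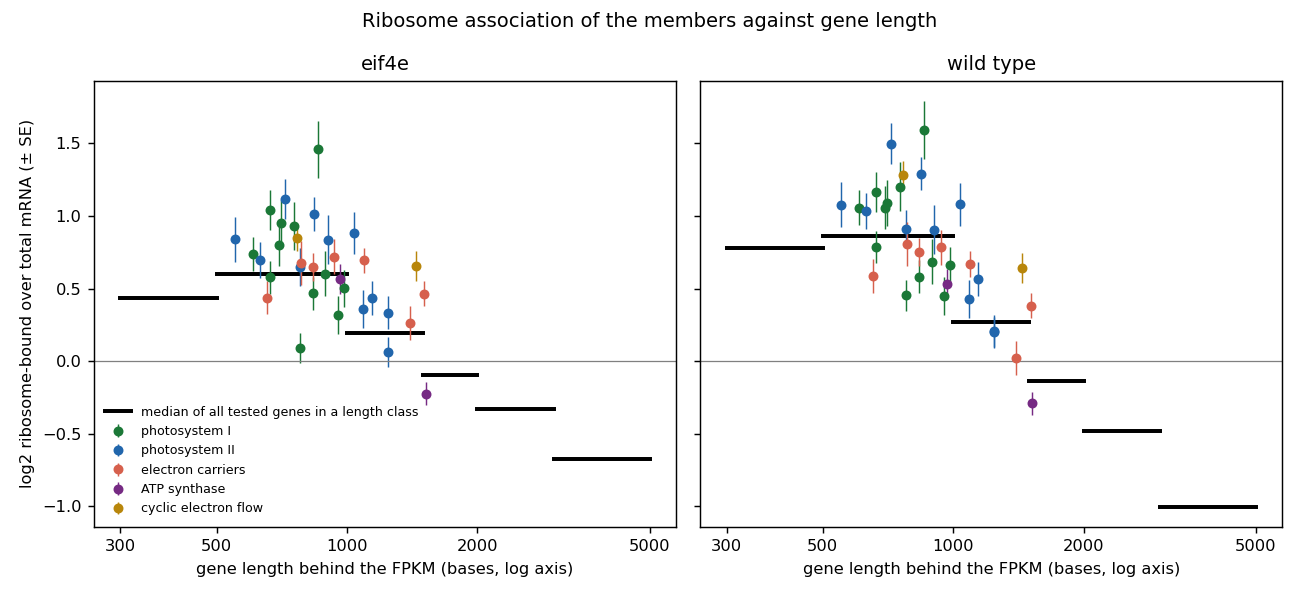
Ribosome association (y axis, log2 ribosome-bound over total mRNA, ± SE) against the gene length behind the FPKM (x axis, bases, log scale) of the members in eif4e (left) and wild type (right); black bars mark the median of all tested genes in each length class. The 24 members of 500 to 1000 bases had medians of 0.71 in eif4e and 0.91 in wild type, beside bars at 0.60 and 0.86; PSAN is highest, and ATPC1 lies below 0.

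The genotype change in ribosome association, the ribosome-bound change minus the total change, passed for 0 of 34 members by edgeR, beside 1.67% of all tested genes higher and 2.35% lower. At an unadjusted p below 0.05 there were 2 of the 34 members, PGR5 and PSAG, beside 3854 of the 19170 tested genes. The median over the members was -0.13 beside -0.01 over all tested genes, 27 of 34 were below 0, and the standard errors ran from 0.11 to 0.27. PGR5 was lowest (-0.43 ± 0.13, adjusted p = 0.0821). It passed with the replicate block (-0.44, adjusted p = 0.0106) and with DESeq2 (adjusted p = 0.0321). PSAG (-0.36 ± 0.15, adjusted p = 0.196) passed with the block (adjusted p = 0.0248). These 2 of 34 members lower with the block stand beside 5.54% of all tested genes. Also low were PSBR (-0.38 ± 0.19), PSBX (-0.34 ± 0.17) and PSAE-2 (-0.32 ± 0.17), and FNR2 was highest (0.24 ± 0.17, adjusted p = 0.475). By complex the median was -0.15 for photosystem I, where all 12 genes were below 0, -0.20 for photosystem II, -0.06 for the carriers, 0.05 for the ATP synthase and -0.21 for cyclic flow, where PGRL1A was at 0.01 ± 0.15.

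This change followed length too. Over all tested genes of 500 to 1000 bases its median was -0.26 and over those of 1500 to 2000 bases 0.03. The 24 members in the shorter class had a median of -0.15. The correlation with log2 length was 0.75 over the 34 members and 0.56 over all tested genes. With the length correction 22 members were above 0 and 12 below, with a median of 0.06. PGR5 was then at -0.18 (adjusted p = 0.602) and PSAG at -0.12 (adjusted p = 0.886), and 0 members passed, also with the block added. On ribosomes the median change of all tested genes of 500 to 1000 bases was -0.21, below the 0.29 of the 24 members in that class, and in total mRNA the medians were 0.04 and 0.46. With the length correction 17 members rose in total mRNA, beside 9.33% of all tested genes, and 23 rose on ribosomes, beside 7.41%. In total mRNA it ended 3 calls. On ribosomes it added 12 calls and ended 2, those of PSBO2 and FNR1. Among those added by edgeR were PSAE-1 (0.60, adjusted p = 0.00982), PSAG (0.42, adjusted p = 0.0128), PSAH-1 (0.42, adjusted p = 0.0114) and PSBX (0.49, adjusted p = 0.00943). The lowest member was then at 0.10 in total mRNA and 0.17 on ribosomes.

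**Figure D5:**
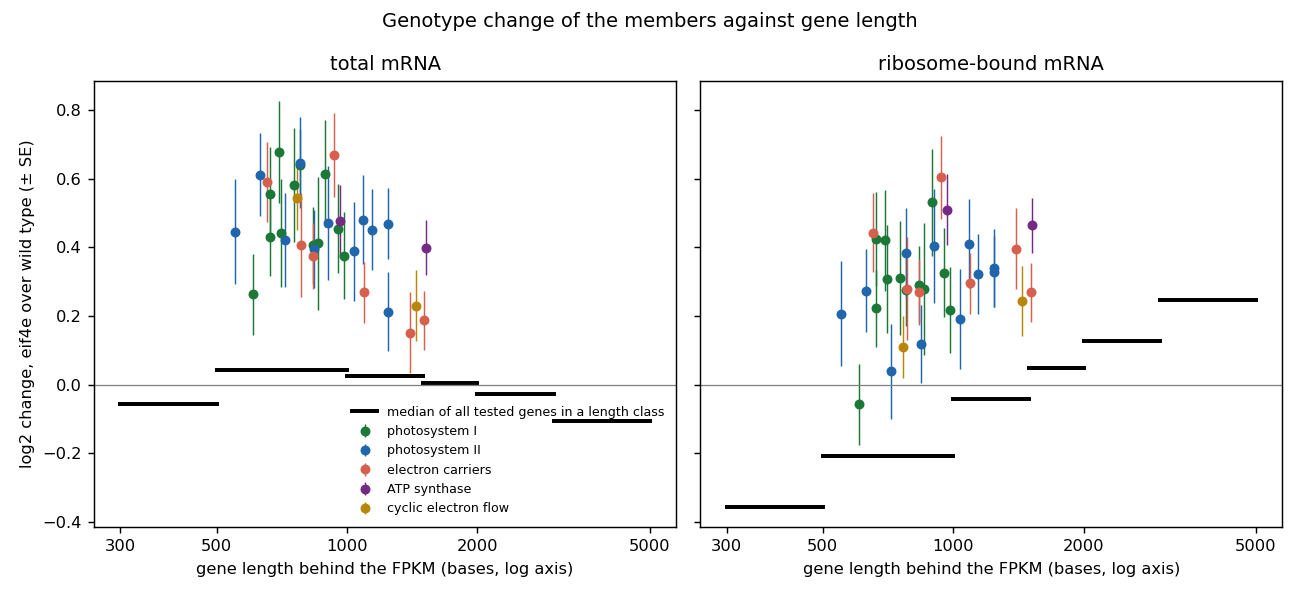
Log2 change of eif4e over wild type (y axis, ± SE) against the gene length behind the FPKM (x axis, bases, log scale) of the members in total mRNA (left) and ribosome-bound mRNA (right); black bars mark the median of all tested genes in each length class. On ribosomes the bars run from below 0 for short genes to above 0 for long ones, and the members lie above the bar of their class in both panels.

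Other nuclear genes of the same machinery were followed in 7 lists. The counts of each list stand beside 10.4% of all tested genes called higher and 6.54% lower in total mRNA. On ribosomes the shares were 15.4% higher and 12% lower. Of 17 genes of the NDH complex, which carries a second route of cyclic flow, 3 rose in total mRNA and 5 on ribosomes, and 0 fell, with medians of 0.25 and 0.17. NDHM (0.53 ± 0.16, adjusted p = 0.044) and NDHS (0.53 ± 0.07, adjusted p = 0.00114), a subunit at the ferredoxin site, rose in total mRNA, and PNSB1 (0.49 ± 0.12, adjusted p = 0.0128) and NDHT (0.40 ± 0.13, adjusted p = 0.0393) on ribosomes. Of 21 genes of photosystem II assembly and repair 7 rose in total mRNA, 13 rose on ribosomes and 0 fell, with medians of 0.17 and 0.25. HCF136, an early assembly factor (0.54 ± 0.09, adjusted p = 0.00366), and AT1G54500 (0.45 ± 0.11, adjusted p = 0.0197) led in total mRNA, and the lumenal immunophilin CYP38 (0.46 ± 0.12, adjusted p = 0.0181) and HCF244 (0.45 ± 0.10, adjusted p = 0.00806), needed for translation of a reaction centre protein, on ribosomes. Of 6 genes of photosystem I assembly 2 rose in total mRNA, PSA2 (0.42 ± 0.10, adjusted p = 0.0185) and PDE329 (0.28 ± 0.08, adjusted p = 0.0407), and 3 on ribosomes, among them AT1G22700 (0.28 ± 0.07, adjusted p = 0.0161) and PPD1 (0.28 ± 0.09, adjusted p = 0.0318). Their medians were 0.21 and 0.20.

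Of 7 further cytochrome b6f genes 2 rose in total mRNA, AT2G26500 or PETM (0.71 ± 0.14, adjusted p = 0.00725) and the haem-binding factor gene CCB1 (0.47 ± 0.08, adjusted p = 0.00369). PETM is a b6f subunit gene outside the members, and its total change was above the largest of theirs (0.68). On ribosomes CCB1 (0.37 ± 0.08, adjusted p = 0.00813) and AT1G49380 (0.27 ± 0.07, adjusted p = 0.0175) rose, and AT2G26500 did not pass (adjusted p = 0.99). The medians of that list were 0.19 and 0.15. Of 5 tested genes of 6 for other ATP synthase subunits and assembly, 2 rose in total mRNA, PDE334 (0.27 ± 0.08, adjusted p = 0.0396) and AT2G21385 (0.26 ± 0.08, adjusted p = 0.0406), and CGL160 rose on ribosomes (0.23 ± 0.08, adjusted p = 0.043), with medians of 0.25 and 0.18. Of 11 tested genes of 12 for other carriers and docking proteins, TROL, a thylakoid anchor of FNR, rose in total mRNA (0.47 ± 0.09, adjusted p = 0.00579). TIC62, which also binds FNR, rose on ribosomes (0.51 ± 0.12, adjusted p = 0.0125), TROL did too (0.33 ± 0.09, adjusted p = 0.0185), and the root-type ferredoxin gene FD3 fell (-0.37 ± 0.10, adjusted p = 0.0193). The medians there were 0.07 and 0.02. Of 8 genes of thylakoid kinases, phosphatases and membrane shape, 4 rose in total mRNA, led by STN8, a kinase of photosystem II (0.72 ± 0.10, adjusted p = 0.0014), and CURT1A, which curves the grana margins (0.64 ± 0.10, adjusted p = 0.00202). On ribosomes STN8 (0.32 ± 0.10, adjusted p = 0.0416) and STN7, the state transition kinase (0.24 ± 0.07, adjusted p = 0.0276), rose, and the medians were 0.16 and 0.03.

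Some markers of other cell types moved with genotype in the same libraries. Over all tested genes 10.4% were called higher in total mRNA and 15.4% on ribosomes. Of 17 root markers 13 were tested, of which 0 rose and 4 fell in total mRNA, beside 6.54% of all tested genes lower, and 1 rose and 5 fell on ribosomes, beside 12% lower, with medians of -0.53 and -0.56. Their summed level was 1698 to 2113 FPKM in total eif4e, against 2354 to 2991 FPKM in total wild type, and 1219 to 1489 FPKM in ribosome-bound eif4e, against 1754 to 1957 FPKM in ribosome-bound wild type. Those that fell were the Casparian strip genes CASP1 (-0.54 in total, -0.67 on ribosomes), CASP2 (-0.59 and -0.64) and ESB1 (-0.50 and -0.45), the beta-glucosidase gene BGLU22 (-1.13 and -1.57) and, on ribosomes, BGLU21 (-1.22), while SCR rose on ribosomes (0.30). Of 15 genes of photorespiration, which mark green mesophyll, 14 were tested, of which 8 rose in total mRNA and 12 on ribosomes, with 0 lower and medians of 0.35 and 0.37. Their summed level was 8674 to 10099 FPKM in total eif4e, against 7601 to 8247 FPKM in total wild type, and 8862 to 9949 FPKM in ribosome-bound eif4e, against 7484 to 8399 FPKM in ribosome-bound wild type. GGT1 (0.73), GOX1 (0.53), AGT1 (0.45), AT1G32470 (0.43), GDCH (0.38), GOX2 (0.35), AT1G11860 (0.35) and HPR (0.34) rose in total mRNA. On ribosomes GLDP1 (0.68) had the largest change of that list.

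Of 8 guard cell and epidermis markers TMM, a receptor gene of the stomatal lineage, rose in total mRNA (0.63), and TMM (1.06), SPCH (0.72), PDF2 (0.49), ATML1 (0.48) and FAMA (0.44) rose on ribosomes, where their sum was 209 to 229 FPKM in eif4e, against 169.8 to 182 FPKM in wild type. In total mRNA it was 319 to 390.2 FPKM in eif4e, against 331 to 364 FPKM in wild type. For the guard cell, phloem and meristem lists the shares of all tested genes were 10.4% higher and 6.54% lower in total mRNA. On ribosomes they were 15.4% and 12%. Of 4 phloem markers 0 passed in total mRNA and RTM1 fell on ribosomes (-0.91). Their sum was 62.7 to 86.6 FPKM in total eif4e, against 76.5 to 86.3 FPKM in total wild type, and 87.6 to 104 FPKM in ribosome-bound eif4e, against 104 to 107 FPKM in ribosome-bound wild type. Of 2 tested of 4 shoot meristem markers STM rose in total mRNA (0.59), and CLV3 and WUS were below 0.1 FPKM on average in each group. That list summed to 19.7 to 21.9 FPKM in total eif4e, against 19.3 to 22.7 FPKM in total wild type, and 16.7 to 17.4 FPKM in ribosome-bound eif4e, against 17 to 17.4 FPKM in ribosome-bound wild type. No marker was listed at 0 in all 12 libraries. The part of these cell type markers in the members' changes was not tested. Within each replicate number, 34, 33 and 34 of the 34 members were higher in eif4e in total mRNA (replicates 1, 2 and 3, counts scaled by TMM and library size), with median log2 ratios of 0.41, 0.44 and 0.50. On ribosomes 33, 31 and 34 were, with medians of 0.28, 0.21 and 0.40. In plain FPKM the counts were 33, 31 and 34 in total mRNA and 28, 32 and 34 on ribosomes. The 6 adapter indexes were each used for 1 eif4e and 1 wild-type library. If these indexes alone told libraries apart, those that share an index were not read in 1 pool. The sheet names no lanes, so whether libraries were read in separate pools that differed by genotype is not known. The part of any such pool could not be tested.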

How the data were processed

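Total mRNA and mRNA of immunopurified ribosomes were sequenced from 12 libraries, 3 in each of 4 groups. Per the labels' protocols, polyadenylated RNA was made into stranded libraries, and per the submitters' processing notes reads were aligned with TopHat2 2.0.11 to TAIR10; the sources used here do not name the counting program. The authors deposited, per library and gene, a whole-number count and an FPKM value. The authors' FPKM is the count divided by gene length and by a read total per library; both were recovered from the pair of deposited values, and the counts of the listed genes made up 95.7 to 97.9% of those totals. Of the 25835 genes, 3308 were missing from at least 1 table, with at most 51 counts elsewhere, and were taken as 0 there.

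Counts were tested with edgeR 4.0.16 (R 4.3.3; TMM scaling, quasi-likelihood test, 2-sided) with 1 mean per group over all 12 libraries, which leaves 8 residual degrees of freedom, on the 19170 genes with a mean of at least 1 FPKM. P-values were adjusted by Benjamini-Hochberg over all of these, and an adjusted p below 0.05 is called higher or lower. The SE is the log2 change over the square root of F. Alternatives used limma 3.58.1, DESeq2 1.42.0, other scalings and filters, gene length offsets (loess, span 0.3), the replicate block and left-out libraries.

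Replicate numbers were taken to pair the libraries: in all 18 same-number pairs of libraries from different groups the deviations from the group means correlated at 0.186 to 0.795 across genes, against -0.727 to 0.299 for other numbers. The eif4e and wild-type tables of the same kind and number also list the same genes, in 6 of 6 pairs. That may come from how the tables were made. Replicates 2 and 3 of eif4e correlated most with their own number in wild type, but replicate 1 did not. Total eif4e 1 correlated at 0.246 with total wild type 1 and at 0.271 with total wild type 3. For ribosome-bound eif4e 1 the values were 0.193 and 0.231. The labels do not say what a replicate number shares, so the pairing is an assumption. Total and ribosome-bound libraries of the same genotype and number correlated at 0.357 to 0.795. Libraries of the same number but different genotypes correlated at 0.186 to 0.536. The main tests of association treat the libraries as independent. The block is shared by both genotypes and does not model a pairing within a genotype. Replicates of a group differed by more than counting noise (chi-square per degree of freedom at least 6.73).

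The members, the other gene lists and the tests were chosen with earlier results of these data known. Members were given in full where they had the largest or smallest change of their complex, passed the test of the genotype change in association (0 did by edgeR) or were paralogs of such a gene; FD1, FD2 and PSAG were added after their values were seen. Names come from a RefSeq gene table (TAIR10.1), which matched 25710 identifiers and all 34 members. Coordinates and sequences were not used here, so the planned description of promoters and proteins was not run.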

Additional observations from a re-analysis of the deposited data

Results flagged for a closer look

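None of the 34 members passed the test of the difference between total and ribosome-bound change by edgeR without the replicate block, and PGR5 and PSAG passed with it, beside 5.54% of all tested genes lower in that fit. Among the other lists 4 genes passed without the block, by edgeR's interaction test with adjustment over all tested genes. In that fit 1.67% of all tested genes were called higher and 2.35% lower. PSA2 (AT2G34860), a photosystem I assembly factor, had a ribosome-bound change below its total change by -0.5973 on the log2 scale (adjusted p = 0.044), with -0.18 ± 0.10 on ribosomes and 0.42 ± 0.10 in total mRNA. CURT1A (AT4G01150), which curves the grana margins, had a difference of -0.6324 (adjusted p = 0.0346), with 0.01 ± 0.10 on ribosomes and 0.64 ± 0.10 in total mRNA. The phloem marker RTM1 (AT1G05760) had -0.9119 (adjusted p = 0.0372), with -0.91 ± 0.14 on ribosomes and 0.00 ± 0.15 in total mRNA. The meristem marker STM (AT1G62360) had -0.7616 (adjusted p = 0.0364), with -0.18 ± 0.12 on ribosomes and 0.59 ± 0.12 in total mRNA. With the length correction the differences were -0.39 (adjusted p = 0.214) for PSA2, -0.45 (adjusted p = 0.12) for CURT1A, -0.60 (adjusted p = 0.32) for RTM1 and -0.73 (adjusted p = 0.102) for STM.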

How the results depend on the processing

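All 34 members kept a total change above 0 with RLE, library-size and upper-quartile scaling, but with quantile normalisation PSBO2 (-0.043), PETC (-0.015), FNR1 (-0.080) and FNR2 (-0.052) were below 0. Of the members called higher in total mRNA, 20 with TMM, there were 12 with library size alone, 7 with quantile normalisation, 12 with limma at each pseudocount (0.1, 1 and 5), 32 with the replicate block, 31 with block and length correction, and 0 to 25 with libraries or replicate numbers left out. On ribosomes, against 13, there were 7 with library size alone and with upper-quartile scaling, 5 with quantile normalisation, 6 with limma at each pseudocount, 3 with only the compared libraries, 29 with the block, 23 with the length correction, 33 with both, and 0 to 22 with libraries or replicate numbers left out. The lowest counts, 0 in both kinds, came without replicate 1 in all groups, which leaves 2 libraries a group. In that fit 370 of all 19170 tested genes were called higher in total mRNA and 4 on ribosomes. Calls over all tested genes moved with the other settings too. In total mRNA 2001 were higher with TMM, 1023 with library size alone, 1790 with quantile normalisation and 3225 with the block. On ribosomes these counts were 2943, 2122, 2923 and 4006. With block and length correction they were 2909 in total mRNA and 2527 on ribosomes. For the genotype change in association, 0 were lower by edgeR, 1 with DESeq2, 2 with the block and 0 to 2 with libraries left out. Association calls followed the length correction. In eif4e 29 higher became 8, or 13 with the block added, and 1 lower became 2, or 7 with the block added; that 1 became 0 with upper-quartile scaling, with no filter and with only the compared libraries, and 0 to 1 with libraries left out. In wild type 30 higher became 7, or 11 with the block added, and 1 lower became 3, or 6, and 0 to 1 with libraries left out. Of all 19170 tested genes in eif4e, 3224 were called higher and 4296 lower with the length correction. With the block added these were 4075 and 5602. In wild type the counts were 3813 and 4391, and 4691 and 5548 with the block added. With the length correction the log2 association turned below 0 in eif4e for PSAD-1 -0.13, PSAE-2 -0.014, PSAF -0.18, PSAG -0.55, PSAH-1 -0.14, PSBO1 -0.20, PSBX -0.043, PSBY -0.022, FD1 -0.28, and in wild type for PSAD-1 -0.23, PSAD-2 -0.052, PSAE-2 -0.0097, PSAF -0.21, PSAG -0.43, PSAH-1 -0.23, PSBO1 -0.12, PSBO2 -0.11, PSBTN -0.030, PSBX -0.010, PSBY -0.060, PETE1 -0.076, FD1 -0.44, FD2 -0.065, FNR2 -0.16, ATPD -0.11. With block and length correction it did in eif4e for PSAD-1 -0.13, PSAE-2 -0.015, PSAF -0.18, PSAG -0.54, PSAH-1 -0.14, PSBO1 -0.20, PSBX -0.041, PSBY -0.026, FD1 -0.29, and in wild type for PSAD-1 -0.23, PSAD-2 -0.054, PSAE-2 -0.011, PSAF -0.22, PSAG -0.43, PSAH-1 -0.23, PSBO1 -0.12, PSBO2 -0.11, PSBTN -0.036, PSBX -0.014, PSBY -0.061, PETE1 -0.074, FD1 -0.44, FD2 -0.067, FNR2 -0.16, ATPD -0.11, and the ribosome-bound change of PSAE-2 turned to 0.17 with the length correction, with and without the block. The cause of the length trend was not tested. The block ended no call in total or ribosome-bound mRNA. At 3 libraries a group, an adjusted p above 0.05 does not show that levels were alike.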
